A study of Mus musculus with 4 samples.

Results

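The transcripts of 9 genes of the adherens junction were followed in brain endothelial cells. They were taken by name as cadherins (Cdh5, Cdh2), catenins (Ctnnb1, Jup, Ctnna1, Ctnnd1), the nectin pair (Nectin2, Afdn) and the endothelial adhesion molecule Pecam1, and they are 9 of the 21578 genes in the joined tables. RNA came from mice at postnatal day 0 of strain C57BL/6 whose Pd1 gene (Pdcd1, which encodes the checkpoint receptor PD-1) carried loxP sites. The Pd1fl/fl libraries (2) are the controls, and in the Pd1cKO-Tie2 libraries (2) the gene was also exposed to Cre recombinase from a Tie2 transgene, which acts in the endothelial lineage and is known to act in blood cells too. The methods describe sorting of cells with antibodies to CD31, the product of Pecam1, and to CD45, followed by culture. The sources used here do not give how many animals stand behind a library, or whether RNA was taken before or after culture, so p-values measure only the spread between these libraries.

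At the adherens junction, cadherins of adjacent cells bind each other outside the cell, and their tails hold catenins. Beta-catenin or plakoglobin sits on the tail and binds alpha-catenin, which links to actin, while p120-catenin binds nearer the membrane and slows removal of the cadherin from the surface. Nectins form a second adhesion system at the same contacts, tied to actin by afadin, and in brain vessels these contacts accompany the tight junctions of the blood-brain barrier.

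All 9 genes had counts in every library and passed the filter on low counts. Levels are given as CPM, the reads of a gene scaled to the size of its library, after edgeR's TMM correction for library composition. The study's methods set a limit of a 2-fold change, in either direction, together with p not above 0.05, called the criterion here. None of them met it (0 of 9, against 4.02% of the 15909 tested genes), and 0 had an adjusted p under 0.05. Of the 2141 genes with a mean of at least 100 CPM, to which 8 of the 9 belong, 0.56% met it. Across all tested genes, 0 had an adjusted p under 0.05 and 1016 had an unadjusted p under 0.05 in edgeR's quasi-likelihood test, while DESeq2 gave 114 and 1366. The log2 fold change of Pd1cKO-Tie2 over Pd1fl/fl ran from -0.08 for Cdh2 to 0.62 for Afdn. Its median was 0.29 over the 9 genes, -0.0038 over all tested genes and 0.086 over those with at least 100 CPM. The fitted value was positive for 7 genes, where it was positive for 49.6% of all tested genes. For 5 genes (Cdh5, Afdn, Nectin2, Pecam1 and Ctnnd1) the lower Pd1cKO-Tie2 library was above the higher Pd1fl/fl library, and the other 4 genes overlapped between the genotypes. Such a separation was found in 17.7% of all tested genes, and in 30.3% of those with at least 100 CPM. An unadjusted p of 0.05 or less with a higher level was found for Cdh5 and Afdn, and for 2.84% of all tested genes. In bulk samples, fewer cells of a type and less RNA per cell cannot be told apart.

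The 12 endothelial markers, none of them among the 9 genes, moved with this pattern. Their summed level was 12089 and 11077 CPM in the Pd1fl/fl libraries and 14433 and 15264 CPM in the Pd1cKO-Tie2 libraries, with the genotypes separated upwards in 12 of the 12 and a median log2 fold change of 0.36. When each library was scaled to the geometric mean of these markers instead of by TMM, the median of all genes moved to -0.372, and the values of the 9 genes moved down with it, so that 3 of them (Afdn, Cdh5 and Ctnnd1) were positive. This follows from the scaling and is no separate test of the 9 genes. The genes past the criterion then split into 135 higher and 872 lower, against 224 and 416 with TMM. On that scale Cdh5 was at 0.11 and Afdn at 0.24 (log2), both without a p of 0.05 or less.

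**Figure D1:**
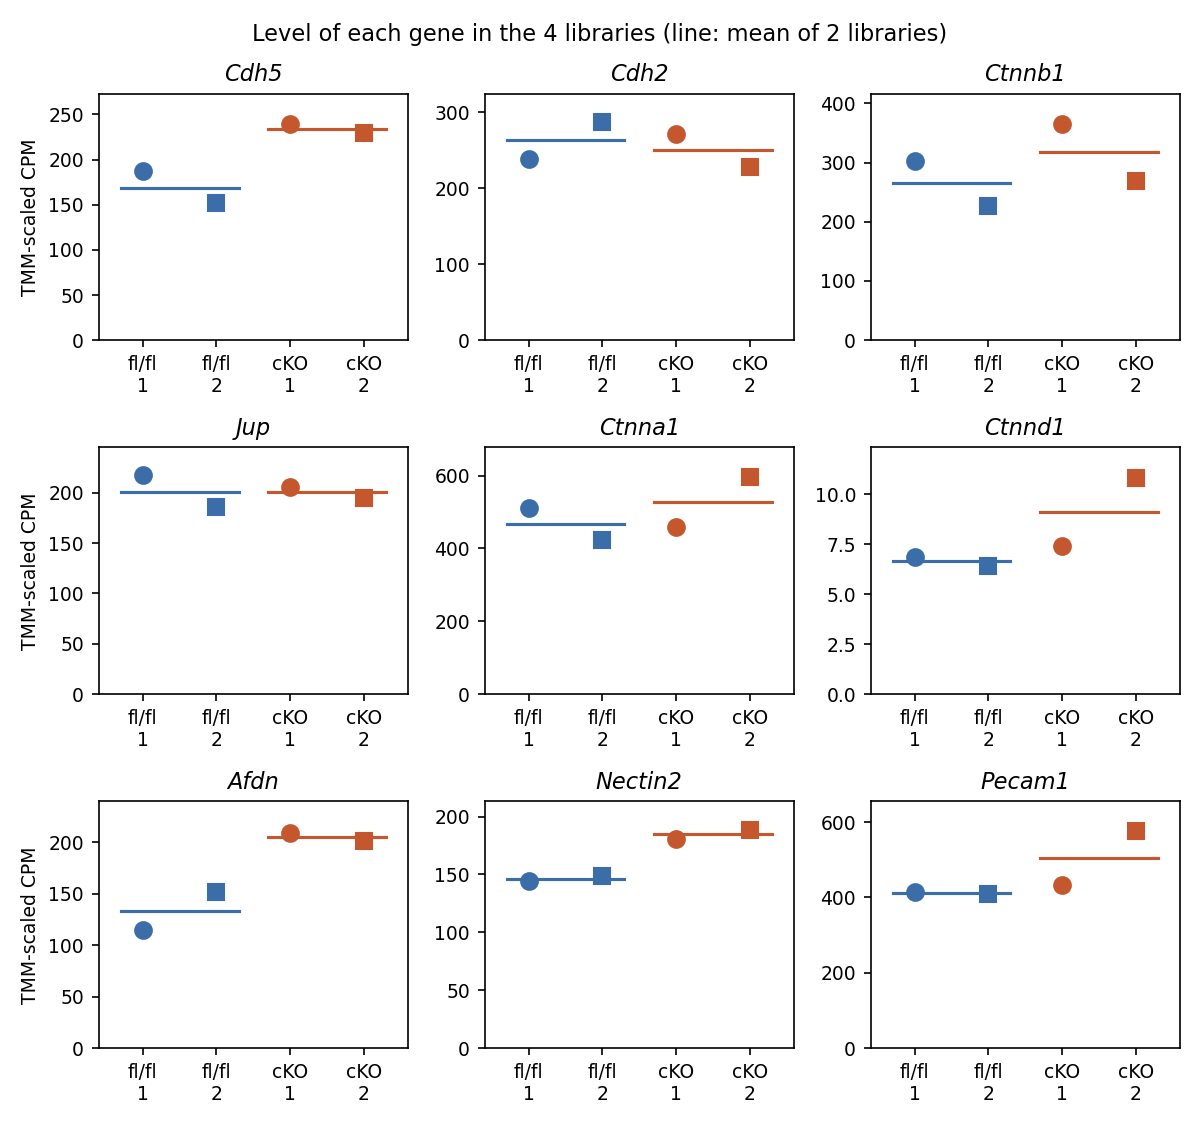
Level of each of the 9 adherens junction genes in each library, in TMM-scaled CPM on a linear axis from 0, with blue for Pd1fl/fl and orange for Pd1cKO-Tie2, circles and squares for replicates 1 and 2, and a line at the mean of the 2 libraries. Cdh5, Afdn and Nectin2 separate the genotypes with both Pd1cKO-Tie2 libraries close together, whereas in Pecam1 and Ctnnd1 the first Pd1cKO-Tie2 library lies near the Pd1fl/fl libraries.

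Cdh5 encodes VE-cadherin, the cadherin that defines endothelial junctions. The gene (ENSMUSG00000031871) lies at chr8:104101625-104144511 of GRCm38 on the forward strand. It was at 187 and 152 CPM in Pd1fl/fl and at 239.5 and 229 CPM in Pd1cKO-Tie2 libraries, from 2160 to 5723 counts. The Pd1cKO-Tie2 libraries lay above and closer together than the Pd1fl/fl libraries. The means were 169 ± 24.3 and 234 ± 7.46 CPM (SD, n = 2), a 1.38-fold higher level with a 95% interval from 1.03 to 1.86 (log2 fold change 0.47, standard error 0.17, adjusted p = 0.753, edgeR's quasi-likelihood test). Over all settings the adjusted p lay between 0.448 and 0.928. By p it ranked 775 among the tested genes. The unadjusted p was 0.05 or less with all 4 libraries, and it no longer was when Pd1fl/fl replicate 2 (log2 fold change 0.33), Pd1cKO-Tie2 replicate 1 (0.44) or Pd1cKO-Tie2 replicate 2 (0.51) was left out.

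Cdh2 encodes N-cadherin, which endothelial cells carry beside VE-cadherin and which neurons, glia and pericytes use as well. The gene (ENSMUSG00000024304, chr18:16588877-16809246, reverse strand) was at 239 and 287 CPM in Pd1fl/fl and at 272 and 228 CPM in Pd1cKO-Tie2 libraries. The highest and the lowest library thus enclosed the others, with 1 of each genotype. The log2 fold change was -0.08 (standard error 0.18, adjusted p = 1, edgeR), and the 95% interval of the fold ran from 0.70 to 1.29. Its sign turned without Pd1fl/fl replicate 2 (0.067) or without Pd1cKO-Tie2 replicate 2 (0.052). Scaled to the endothelial markers, the log2 fold change of Cdh2 was -0.45. Neurons, glia and pericytes are other sources of this transcript. The 8 neuronal markers summed to 958 and 1296 CPM in Pd1fl/fl and to 1133 and 973 CPM in Pd1cKO-Tie2 libraries, with the higher sum in the same library of each genotype as the higher Cdh2. Not every marker followed its sum. Snap25, Gap43 and Rbfox3 went the other way between the Pd1fl/fl libraries. Between the Pd1cKO-Tie2 libraries Map2 and Rbfox3 did so, and Stmn2 was equal. The 8 pericyte markers summed to 5762, 3761, 3862 and 3834 CPM in the same order of libraries, most of it Rgs5. The 8 radial glia and astrocyte markers summed to 990.0, 899.6, 726 and 663 CPM in that order. Their higher sum fell in the library with the lower Cdh2 in Pd1fl/fl and with the higher Cdh2 in Pd1cKO-Tie2. The part of these cells in the Cdh2 values was not tested.

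Taken per length, Cdh5 made up 60.0% and 50.4% of the Cdh5 and Cdh2 transcripts in the Pd1fl/fl libraries, against 62.8% and 65.9% in the Pd1cKO-Tie2 libraries. The length is that of all annotated exons of a gene joined, 4203 bases for Cdh5 and 8066 for Cdh2, and the share depends on it. In CPM, without the length, Cdh2 was above Cdh5 in every library but Pd1cKO-Tie2 replicate 2 (228 against 229 CPM). As a ratio within each library, Cdh2 to Cdh5 was 0.668 and 0.984 in the Pd1fl/fl libraries, against 0.592 and 0.518 in the Pd1cKO-Tie2 libraries. Both Pd1cKO-Tie2 ratios lay below both Pd1fl/fl ratios, with means of 0.826 ± 0.22 and 0.555 ± 0.052 (SD, n = 2). The difference was -0.55 on the log2 scale, and the two-sided exact permutation test gave p = 0.33, the smallest value that 2 against 2 libraries allow. It ranged from -0.27 without Pd1fl/fl replicate 2 to -0.83 without Pd1fl/fl replicate 1. A ratio within a library does not depend on how libraries are scaled.

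Ctnnb1 encodes beta-catenin, which holds alpha-catenin on the cadherin tail and also carries the canonical Wnt signal in the nucleus. The gene (ENSMUSG00000006932, chr9:120929216-120960507, forward strand) was at 303 and 227 CPM in Pd1fl/fl and at 365 and 269 CPM in Pd1cKO-Tie2 libraries. The second library was the lower one in both genotypes, by 0.42 and 0.44 on the log2 scale, a wider gap than the 0.26 between the genotypes. The fold was 1.2 with a 95% interval from 0.813 to 1.76 (standard error 0.22 on the log2 scale, adjusted p = 0.999, edgeR). Its exons share 759 bases with Ulk4 on the other strand, which had between 33 and 152 counts.

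Jup encodes plakoglobin, which can take the place of beta-catenin on cadherin tails and also occurs in desmosomes. The gene (ENSMUSG00000001552, chr11:100368958-100397763, reverse strand) was at 217 and 186 CPM in Pd1fl/fl and at 206 and 195 CPM in Pd1cKO-Tie2 libraries. The Pd1cKO-Tie2 values lay between the Pd1fl/fl values. The means were 201 ± 22 and 201 ± 7.57 CPM (SD, n = 2), and the 95% interval of the fold ran from 0.752 to 1.32 (adjusted p = 1, edgeR). The sign of so small a value turned with the test, the filter or the library left out, between -0.11 and 0.11 on the log2 scale in the last case. Scaled to the endothelial markers, the log2 fold change of Jup was -0.37. The share of Jup in the sum of Jup and Ctnnb1, per length, was 36.6% and 39.7% in the Pd1fl/fl libraries, against 31.3% and 36.9% in the Pd1cKO-Tie2 libraries, and these overlapped. The ratio of Jup to Ctnnb1 differed by -0.26 on the log2 scale (two-sided exact permutation test, p = 0.667). The desmosomal partners of plakoglobin were scarce. Dsp (desmoplakin) was at 2.71 and 7.68 CPM in Pd1fl/fl and at 3.43 and 0 CPM in Pd1cKO-Tie2 libraries, and Dsg2, Dsc2, Dsg1a and Dsc3 are listed in no table.

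Ctnna1 encodes alpha-catenin, the link from the cadherin complex to actin filaments. The gene (ENSMUSG00000037815, chr18:35118888-35254773, forward strand) was at 511 and 422 CPM in Pd1fl/fl and at 459 and 596 CPM in Pd1cKO-Tie2 libraries. The genotypes overlapped, since the first Pd1cKO-Tie2 library lay between the Pd1fl/fl libraries. The fold was 1.13 with a 95% interval from 0.822 to 1.55 (log2 fold change 0.18, standard error 0.19, adjusted p = 1, edgeR). Without Pd1cKO-Tie2 replicate 2 the log2 fold change was -0.019.

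Ctnnd1 encodes p120-catenin. Its gene (ENSMUSG00000034101, chr2:84600071-84650765, reverse strand) was counted 99 and 91 times in the Pd1fl/fl libraries and 177 and 148 times in the Pd1cKO-Tie2 libraries, or 6.87, 6.41, 7.41 and 10.8 CPM. The Pd1cKO-Tie2 libraries lay above, the first by little, and the 95% interval of the fold was wide, from 0.521 to 3.62 around 1.37 (adjusted p = 1, edgeR). This level is uncertain. Of its 7319 exon bases, 4482 (61.2%) also lie in exons of Gm28635, an annotated gene on the same strand that had 0 counts in all libraries. A counting program that sets aside reads shared by 2 genes would leave only the other 2837 bases, over which the counts came to between 2.26 and 3.82 CPM per kb. How the authors treated such reads is not given in the sources used here, and the effect on Ctnnd1 was not tested.

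Afdn encodes afadin, which ties nectins to actin. The gene (ENSMUSG00000068036, chr17:13760539-13906150, forward strand) was at 115 and 152 CPM in Pd1fl/fl and at 209 and 201 CPM in Pd1cKO-Tie2 libraries, from 1658 to 5002 counts. The lower Pd1cKO-Tie2 library was 1.32-fold above the higher Pd1fl/fl library, the widest such gap of the 9 genes. The means were 133 ± 25.9 and 205 ± 6.22 CPM (SD, n = 2), a 1.54-fold higher level with a 95% interval from 1.1 to 2.15 (log2 fold change 0.62, standard error 0.20, adjusted p = 0.735, edgeR). By p it ranked 433 among the tested genes. The unadjusted p was likewise above 0.05 without Pd1fl/fl replicate 1 (log2 fold change 0.44), Pd1cKO-Tie2 replicate 1 (0.60) or Pd1cKO-Tie2 replicate 2 (0.66). The adjusted p of Afdn lay between 0.238 (DESeq2) and 0.928 over all settings, and 0.238 was the lowest for any of the 9 genes.

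Nectin2 encodes a nectin that binds across the contact and holds afadin inside the cell. The gene (ENSMUSG00000062300, chr7:19716644-19750483, reverse strand) was at 144 and 149 CPM in Pd1fl/fl and at 181 and 188 CPM in Pd1cKO-Tie2 libraries. The replicates differed by 0.05 on the log2 scale in both genotypes, less than for any other of the 9 genes in Pd1cKO-Tie2, and the lower Pd1cKO-Tie2 library was 1.22-fold above the higher Pd1fl/fl library. The fold was 1.26 with a 95% interval from 0.965 to 1.65 (log2 fold change 0.34, standard error 0.16, adjusted p = 0.859, edgeR). The moderated spread of the fit is shared with other genes, so a small gap between 2 replicates does not by itself narrow the interval. Scaled to the endothelial markers its log2 fold change was -0.032. The ratio of Nectin2 to Afdn was 3.66 and 2.87 in the Pd1fl/fl libraries, against 2.53 and 2.75 in the Pd1cKO-Tie2 libraries, per length. Both Pd1cKO-Tie2 ratios lay below, by 0.30 on the log2 scale (two-sided exact permutation test, p = 0.33, the smallest possible).

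RefSeq promoter windows (GRCm38.p6) were at hand for 5 of the 9 genes: Ctnnb1, Jup, Ctnnd1, Afdn and Nectin2. The 250 bases before the start are shown for Nectin2, whose Pd1cKO-Tie2 libraries both lay above, and for Jup, whose mean was the same in both genotypes, at chr7:19749574-19749823 and chr11:100397791-100398040, both read from the reverse strand. Neither window overlaps an annotated exon. The RefSeq start used for Nectin2 lies downstream of the start in the deposited positions, so its window is inside the gene as given above. Capitals mark the ETS core CCGGAAG and the GC box GGGCGG on either strand.
Nectin2: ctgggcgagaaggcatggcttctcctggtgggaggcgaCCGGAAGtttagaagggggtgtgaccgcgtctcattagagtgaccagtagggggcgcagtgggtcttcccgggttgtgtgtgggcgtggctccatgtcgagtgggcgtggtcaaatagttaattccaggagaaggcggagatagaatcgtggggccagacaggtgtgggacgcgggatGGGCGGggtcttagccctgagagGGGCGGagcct
Jup: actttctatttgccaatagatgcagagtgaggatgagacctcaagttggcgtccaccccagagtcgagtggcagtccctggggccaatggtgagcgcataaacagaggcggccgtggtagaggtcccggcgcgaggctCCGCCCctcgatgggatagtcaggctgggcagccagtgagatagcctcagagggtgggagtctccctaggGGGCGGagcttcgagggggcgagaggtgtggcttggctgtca
The Nectin2 window holds 1 ETS core and 2 GC boxes, and the Jup window holds 0 ETS cores and 2 GC boxes. Each also holds 0 matches to the TCF/LEF core CTTTGA and 0 to the TATA box TATAAA. The windows of Afdn (log2 fold change 0.62), Ctnnd1 (0.46) and Ctnnb1 (0.26), which are not shown, hold 0 ETS cores. Among 32851 promoter windows, 6.91% hold the ETS core, 32.7% the GC box, 13.8% the TCF/LEF core and 12.4% the TATA box. A match is a description of these letters and not a binding site.

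Pecam1 encodes CD31, an adhesion molecule of endothelial contacts outside the cadherin complex, and its product was the target of the sort. The gene (ENSMUSG00000020717, chr11:106654217-106750628, reverse strand) was at 413 and 409.8 CPM in Pd1fl/fl and at 432 and 576 CPM in Pd1cKO-Tie2 libraries. The Pd1fl/fl libraries nearly coincided and only the second Pd1cKO-Tie2 library stood well above them. The fold was 1.22 with a 95% interval from 0.905 to 1.66 (log2 fold change 0.29, standard error 0.18, adjusted p = 0.937, edgeR). It rested on that library, being 0.074 without it and 0.50 (adjusted p = 0.909, edgeR) without Pd1cKO-Tie2 replicate 1, where alone among all settings its unadjusted p was 0.05 or less. The ratio of Pecam1 to Cdh5, per length, was 1.49 and 1.82 in the Pd1fl/fl libraries, against 1.22 and 1.70 in the Pd1cKO-Tie2 libraries, which overlapped (two-sided exact permutation test, p = 0.667). Platelets and leukocytes also carry CD31. The platelet markers summed to 118 and 113 CPM in Pd1fl/fl and to 90.4 and 98.7 CPM in Pd1cKO-Tie2 libraries. Most of this was Itga2b (75.5 and 74.6 against 56.5 and 56.7 CPM). Pf4 (log2 fold change 0.21), Ppbp, Gp1bb and Gp9 overlapped between the genotypes. Ptprc, which encodes CD45, was at 86.4 and 139 CPM in Pd1fl/fl and at 54.6 and 67.9 CPM in Pd1cKO-Tie2 libraries, with a log2 fold change of -0.88. The platelet sum and Ptprc were lower in both Pd1cKO-Tie2 libraries than in the Pd1fl/fl libraries. Between the Pd1cKO-Tie2 libraries both were higher in the second, as was Pecam1. Of the platelet markers, Itga2b was nearly the same in these libraries (56.5 and 56.7 CPM). Ppbp was lower in the second (9.67 and 6.59 CPM), whereas Pf4, Gp1bb and Gp9 were higher in it. The part of these cells in the Pecam1 values was not tested.

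**Figure D2:**
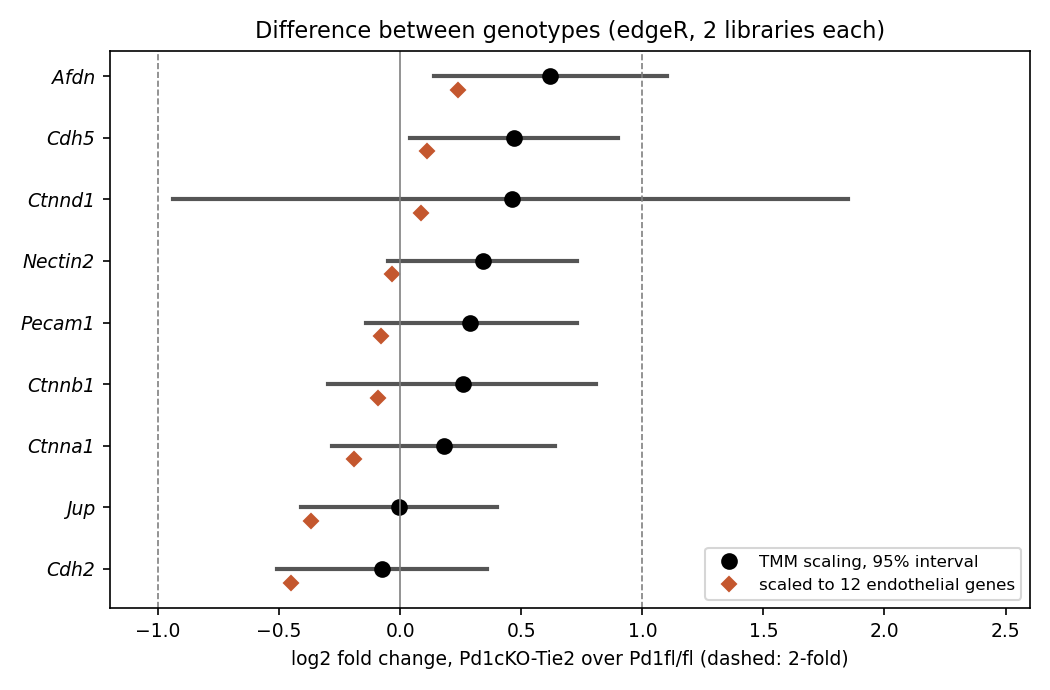
Log2 fold change of Pd1cKO-Tie2 over Pd1fl/fl for the 9 genes from edgeR with TMM scaling (black points, lines for the 95% interval) and after scaling to the 12 endothelial markers (orange diamonds), with dashed lines at a 2-fold change. The intervals of Afdn and Cdh5 lie above 0 under TMM scaling, those of Afdn and Ctnnd1 reach a 2-fold higher level, and every diamond lies to the left of its point.

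The 9 intervals, all from the fit with TMM scaling, set the limits of what these libraries could show on that scale. They reached a 2-fold higher level for 2 genes, Afdn and Ctnnd1, and a 2-fold lower level for 0 genes. For the other 7 a change of that size in either direction lay outside the 95% interval. Intervals were not taken for the scaling to the endothelial markers, which lowered the value of each gene.

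To compare the genes with each other, CPM was divided by the length of each gene's exons (CPM per kb). This length joins all annotated exons of a gene, whether or not these cells use them, so the order of the genes depends on the annotation. In Pd1fl/fl cells Ctnna1 had the highest level, 72.6 ± 9.79, followed by Pecam1 at 66.1 ± 0.377, Ctnnb1 at 51.1 ± 10.3 and Nectin2 at 41.9 ± 1.03 CPM per kb (SD, n = 2). Cdh5 followed at 40.3 ± 5.78, Cdh2 at 32.6 ± 4.24, Jup at 31.3 ± 3.42, Afdn at 13.0 ± 2.54 and Ctnnd1 at 0.907 ± 0.0442 CPM per kb. The libraries of Ctnna1 and Pecam1, of Nectin2 and Cdh5, and of Cdh2 and Jup overlapped, so these neighbours have no set order. In Pd1cKO-Tie2 cells Ctnna1 (82.1 ± 15.1), Pecam1 (80.9 ± 16.4) and Ctnnb1 (61.1 ± 13.1) again led with overlapping libraries, and Cdh5 (55.7 ± 1.78), which overlapped Ctnnb1, came before Nectin2 (52.9 ± 1.42 CPM per kb). Jup (31.2 ± 1.18) and Cdh2 (31.0 ± 3.88) overlapped, and Afdn (20.0 ± 0.608) and Ctnnd1 (1.25 ± 0.332 CPM per kb) were again the lowest. Ctnnb1 and Jup together stood to Cdh5 and Cdh2 together as 1.24 and 1.01 in Pd1fl/fl and as 1.13 and 0.993 in Pd1cKO-Tie2 libraries. Per length, the summed transcripts of Ctnnb1 and Jup were thus near those of Cdh5 and Cdh2 in every library. Ctnnd1 and the other cadherins were not counted in this ratio. The ratio of Ctnnb1 to Cdh5 alone was 1.32, 1.21, 1.23 and 0.95 in the same order, and the genotypes overlapped (two-sided exact permutation test, p = 0.667). The 5 ratios tested between the genotypes, with smallest p = 0.33, could not pass a threshold of 0.05 before or after adjustment (exact permutation tests).

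**Figure D3:**
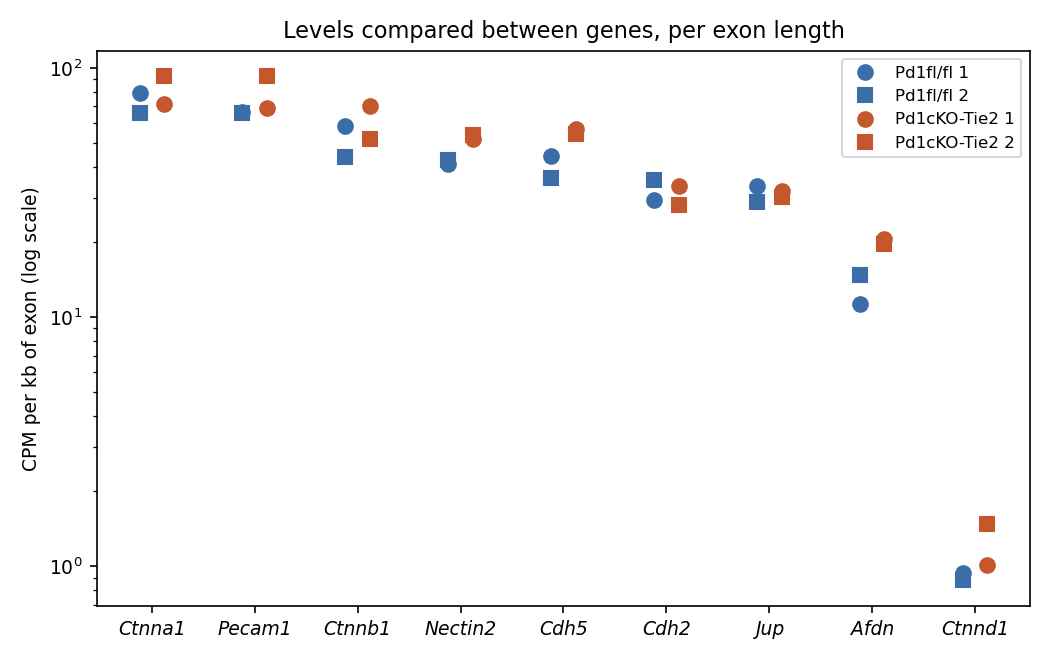
Level of each gene per exon length in CPM per kb, on a log axis, for the 2 Pd1fl/fl (blue) and 2 Pd1cKO-Tie2 (orange) libraries, ordered by the Pd1fl/fl mean. Ctnna1 and Pecam1 lead, 7 genes lie between 28.2 and 92.8 CPM per kb, Afdn lies lower, and Ctnnd1, of whose exon bases 61.2% are shared with another gene, lies lowest in every library.

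Other genes of the junction, or related to these by name, were followed as a list of 72, of which 62 could be tested. By the study's criterion 1 was higher and 1 was lower (3.23%, against 4.02% of all tested genes). The genotypes separated upwards, as above, in 14 of them (22.6%, against 17.7%), and the median log2 fold change was 0.08.

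Among 8 tested cadherins, Cdh1 passed the criterion as lower. Cdh1 encodes E-cadherin, the cadherin of epithelia. It was at 34.2 and 44.9 CPM in Pd1fl/fl and at 12.3 and 17.5 CPM in Pd1cKO-Tie2 libraries, so both Pd1cKO-Tie2 libraries lay far below. The log2 fold change was -1.41 (standard error 0.35, adjusted p = 0.735, edgeR), and Cdh1 met the criterion in all 4 fits that left out a library, at -1.17 to -1.67. Epithelial markers other than Cdh1 were few: Krt8 is listed in no table, and the list with Cdh1 summed to 38.4, 45.7, 18.4 and 17.5 CPM, most of it Cdh1. Microglial markers (7) were lower too in sum, at 1880.0 and 2310.0 CPM in the Pd1fl/fl libraries, against 713 and 1587 CPM in the Pd1cKO-Tie2 libraries, with a median log2 fold change of -0.99. Among them Cx3cr1 overlapped, at 37.7 and 233 against 11 and 102 CPM. The radial glia and astrocyte markers (8) summed to 990.0 and 899.6 CPM and to 726 and 663 CPM, with a median of -0.87. Not all of these 8 were lower. Both Pd1cKO-Tie2 values were below for Slc1a3, Fabp7, Hes5, Aldh1l1 and Gfap, while Sox2 and Aqp4 overlapped. Nes (log2 fold change 0.65) was higher in both, at 217 and 285 CPM against 198 and 122 CPM. The part of these cells in the Cdh1 value was not tested. The most abundant other cadherins were Cdh11 (70.5 and 54.9 against 62.2 and 62.5 CPM, log2 fold change -0.01) and Cdh13, or T-cadherin (42.5 and 44.2 against 50.6 and 60.1 CPM, 0.35, adjusted p = 0.96, edgeR).

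Among the 4 other nectins and nectin-like molecules, Nectin3 passed the criterion as higher. It was at 10.5 and 5.99 CPM in Pd1fl/fl and at 23.7 and 16.3 CPM in Pd1cKO-Tie2 libraries, from 85 to 567 counts. The Pd1cKO-Tie2 libraries lay above in spite of a gap between the replicates in both genotypes. The log2 fold change was 1.28 (standard error 0.49, adjusted p = 0.753, edgeR). The criterion was no longer met without Pd1fl/fl replicate 2 (log2 fold change 0.94), without Pd1cKO-Tie2 replicate 1 (0.99) or with scaling to the endothelial markers (0.94). Pvr, the most abundant of this list, was at 27.7 and 29.6 CPM in Pd1fl/fl and at 29.3 and 47.1 CPM in Pd1cKO-Tie2 libraries (log2 fold change 0.41, adjusted p = 0.99, edgeR).

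Of 12 partners of VE-cadherin (phosphatases, kinases, small GTPases and the scaffold Iqgap1), 0 passed the criterion, against 4.02% of all tested genes. In 5 of them both Pd1cKO-Tie2 libraries lay above, against 17.7% of all tested genes and 30.3% of those with at least 100 CPM. Ptprb, or VE-PTP, the phosphatase that binds VE-cadherin, was at 479 and 460.3 CPM in Pd1fl/fl and at 608 and 647 CPM in Pd1cKO-Tie2 libraries. Its log2 fold change was 0.42 (standard error 0.13, adjusted p = 0.735, edgeR), with an unadjusted p of 0.05 or less. That p was no longer reached without Pd1cKO-Tie2 replicate 2 (0.38) or with scaling to the endothelial markers (0.052). The kinase gene Yes1, named after its values were seen, was at 40.8 and 50.2 CPM in Pd1fl/fl and at 75.7 and 71.6 CPM in Pd1cKO-Tie2 libraries (0.70, standard error 0.24, adjusted p = 0.738, edgeR). Its unadjusted p, too, was 0.05 or less with all 4 libraries and above it without Pd1fl/fl replicate 1 (0.56), Pd1cKO-Tie2 replicate 1 (0.66), Pd1cKO-Tie2 replicate 2 (0.74) or with scaling to the endothelial markers (0.32). Cdc42, a small GTPase of actin assembly and the most abundant of these partners, was at 1784 and 1624 CPM in Pd1fl/fl and at 1747 and 1869 CPM in Pd1cKO-Tie2 libraries.

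The remaining lists held 0 genes past the criterion. The list of other catenins, with 8 tested genes, includes Ctnnbl1 and Ctnnbip1, which carry the name but are not catenins of the junction. Its median log2 fold change was -0.02. The most abundant were Ctnnbl1 (126 and 91.0 against 136 and 109 CPM) and Ctnna2, the neural alpha-catenin (79.8 and 93.8 against 111 and 63.3 CPM). Ctnna3 and Pkp1 are listed in no table. The 13 actin linkers had a median of 0.00, led by Actn4 (1052 and 952 against 1040 and 1217 CPM) and Tjp1, or ZO-1 (344 and 435 against 313 and 469.5 CPM). The 10 genes of Rap1 and the CCM proteins, which stabilise endothelial junctions, had a median of 0.04, led by Heg1 (152 and 138 against 133 and 160.2 CPM) and Krit1 (111 and 131 against 103 and 95.7 CPM). The list of immunoglobulin-family junction molecules and Cd99l2, with 6 genes in all, had a median of 0.24, led by Esam and Jam2. Esam, which is also one of the endothelial markers, was at 1139 and 1025 CPM in Pd1fl/fl and at 1298 and 1318 CPM in Pd1cKO-Tie2 libraries (0.27, adjusted p = 0.802, edgeR). Jam2 overlapped, at 289 and 296 against 264 and 297 CPM.

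**Figure D4:**
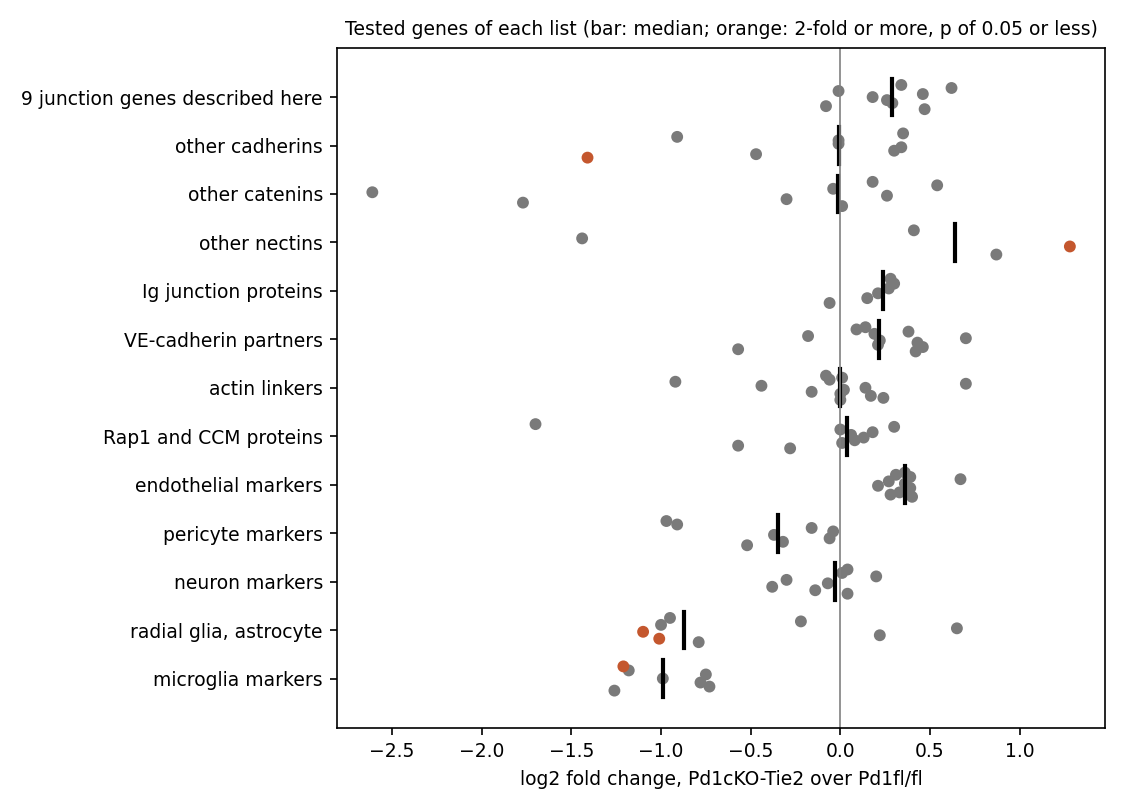
Log2 fold change of Pd1cKO-Tie2 over Pd1fl/fl (edgeR, TMM) for every tested gene of each list, 1 point a gene and a bar at the median, with orange for genes past the criterion. The 9 genes and the endothelial markers lie mostly to the right of 0 with medians of 0.29 and 0.36, the lists of other cadherins, catenins (with Ctnnbl1 and Ctnnbip1) and actin linkers centre near 0, and the microglial markers and 6 of the 8 radial glia and astrocyte markers lie to the left.

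The genes whose levels over the 4 libraries ran closest to those of Cdh5 were sought among 10730 genes with a mean of at least 100 counts. Likeness was measured as the distance of centred log2 CPM over the 4 libraries, where 0 is an identical pattern. Med25 was closest (0.0192), at 43.4 and 35.7 CPM in the Pd1fl/fl libraries, against 56.6 and 53.2 CPM in the Pd1cKO-Tie2 libraries. Adora2a, an adenosine receptor gene, followed (0.0215), at 200.1, 162, 258 and 249 CPM in the same order, and then Lrrc59 (0.0451), at 58.4, 49.1, 75.4 and 74.3 CPM. With 4 libraries, 195 genes lay within 0.2. Among the other 8 junction genes Nectin2 was the nearest to Cdh5 (0.292, rank 623) and Cdh2 the farthest (0.691, rank 4747). Ctnnb1 (0.356) and Ctnna1 (0.436), which bind in the same complex, ranked 1096 and 1833.

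As a check of the labels, the deleted gene Pdcd1 was counted 32 times in Pd1fl/fl replicate 1 and 0 times in each of the other 3 libraries, so its loss was not detectable against the second Pd1fl/fl library. The libraries held between 13715837 and 24147311 counts. Neutrophil markers stood at 693 CPM in Pd1fl/fl replicate 1 and at 2.34 to 55.5 CPM in the other 3 libraries. Without that library the log2 fold change was 0.63 for Cdh5 and 0.44 for Afdn.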

How the data were processed

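The authors deposited 4 tables, each for 1 library of either genotype. In them, counts are whole reads per gene as the authors deposited them, without normalization. The CPM columns, also deposited by the authors, are counts scaled to the library's total and served only to recover totals. The tables also hold fold changes, p-values and adjusted p-values from the authors' pairwise tests, which were not used. The submitters' processing notes name Bowtie2 2.2.3, TopHat2 2.0.12, HTSeq 0.6.0 and mm9, but the deposited gene positions are those of GRCm38 (90% equal GENCODE M21). Use of strand is not given in the sources used here.

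The tables were joined to 21578 genes, of which 21528 identifiers were found in GENCODE M21. The counts of a library were the same in every table, 10 broken lines were skipped, 23 symbols were restored from identifiers, and genes not listed for a library were set to 0 (at most 0.0107% of its reads). Replicates are numbered by column. For the second Pd1cKO-Tie2 column that number is in no label, so only the genotype of this library is known.

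Genes were tested with edgeR 4.0.16 in R 4.3.3 (quasi-likelihood F test) after filterByExpr and TMM, without covariates. P-values were adjusted by the Benjamini-Hochberg method across 15909 genes. Standard errors were taken from the fold change and F. Intervals cover 95%. Alternatives were DESeq2 1.42.0, limma-voom (limma 3.58.1), other filters (every gene with a count, or at least 10 counts in every library) and scalings, leaving out each library, and, chosen after seeing the data, thinning of the deepest library. The scripts were tested on simulated data. The 9 genes and all lists were chosen with earlier results of these data known. Named beside the 9 genes were listed junction genes past the criterion, the 2 most abundant of each list, and the 3 genes nearest to Cdh5 among those with a mean count of at least 100. Figures were drawn with matplotlib 3.10.9 in Python 3.11.15.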

Additional observations from a re-analysis of the deposited data

How the results depend on the processing

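None of the 9 genes met the criterion under any of the 13 alternatives. Scaling to the 12 endothelial markers moved most values: 1007 genes met the criterion (135 higher and 872 lower, against 224 and 416 with TMM), 3 of the 9 genes were higher, and 1 other junction gene met the criterion. The log2 fold change turned to -0.08 for Pecam1, -0.093 for Ctnnb1, -0.19 for Ctnna1 and -0.032 for Nectin2, as the scaling moved the median of all genes from -0.0038 to -0.372. Cdh2 and Jup, below 0 with TMM, moved to -0.45 and -0.37 with it. Jup turned to 0.0043 with limma-voom and to 0.003 with every gene with a count. With a library left out, Jup ran from -0.11 to 0.11, Cdh2 from -0.20 to 0.067, Ctnna1 from -0.019 to 0.36 and the ratio of Pecam1 to Cdh5 from -0.44 to 0.043 on the log2 scale. Other junction genes past the criterion then numbered 2 to 5, with 5 without Pd1cKO-Tie2 replicate 2. An unadjusted p of 0.05 or less was kept in 9 of 14 settings for Cdh5 and in 10 for Afdn, and Cdh5 also lost it with scaling by library size (0.41). A fit without a library leaves 1 sample in a genotype, assumed to vary like the others. No paired analysis was possible because the labels of the genotypes share only 1 replicate number. Of the 9 genes, 8 had at least 1658 counts in every library, and Ctnnd1 had 91 to 177.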

Other observations

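Sums over the remaining cell type markers, whose part in the junction genes was not tested, are given for Pd1fl/fl replicates 1 and 2 and then Pd1cKO-Tie2 replicates 1 and 2. The erythroid markers summed to 641, 546, 569.9 and 1058 CPM and the fibroblast markers to 65.3, 24.0, 14.9 and 42.3 CPM. The oligodendrocyte lineage markers, most of them Olig1, summed to 164, 109, 193 and 100.5 CPM.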
